A study of Mus musculus with 35 samples.

Results

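The genes described here encode proteins of the primary granule and of the promyelocyte, the neutrophil precursor in which that granule is made. They were chosen by Entrez identifier as Mpo, Elane, Prtn3, Ctsg, Nkg7, Cst7 and Ms4a3, 7 of the 24454 genes in the deposited expression table. All 7 passed the filter on low values (10 or more normalized counts in 3 or more libraries) and were tested among 12682 genes.

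Primary (azurophil) granules are the first granules a neutrophil precursor fills, and transcription of their genes is highest at the promyelocyte stage and is shut down as the cell matures. They store myeloperoxidase and a family of serine proteases, which are trimmed to their active form by cathepsin C and packed with the proteoglycan serglycin. In acute myeloid leukemia the same proteins mark myeloid blasts.

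RNA was sequenced from C57BL/6 bone marrow cells, sorted for GFP and CD45.2 from transplanted mice in which a NUP98 fusion gene could be switched off with doxycycline (4 mg/ml). NUP98 fusions join the start of a nuclear pore protein to part of another protein, here the helicase DDX10, the histone demethylase JARID1A (KDM5A) or the histone methyltransferase NSD1. For each of NUP98-DDX10, NUP98-JARID1A and NUP98-NSD1 there were 4 untreated libraries, 3 after 3 days and 3 after 5 days of doxycycline. The 3 untreated libraries titled NUP98-CTRL are labelled with all 3 fusions, in part under other DDX names, so what these controls carry is not known from the labels. Of the 4 untreated libraries per fusion 3 are titled day 5 and 1, replicate 4 here, is titled day 3. No label numbers the animals or the primary leukemias, so the p-values reflect no more than the spread among these libraries, which may be technical.

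Library depth ran from 12043519 to 28912315 reads. The fusion transcripts averaged 12450, 4.98 and 6.3 normalized counts in untreated, day 3 and day 5 NUP98-DDX10 cells, 3225, 96.4 and 85.3 in NUP98-JARID1A cells and 54850, 49.1 and 46.5 in NUP98-NSD1 cells. The eGFP transcript averaged 3.15 at day 5 against 10510 in untreated NUP98-DDX10 cells, 323 against 11650 in NUP98-JARID1A cells and 16.8 against 16470 in NUP98-NSD1 cells, and ranged over 13.9 to 210 in the controls. The 3 control libraries were unlike each other. Summed markers of mature neutrophils (6 genes) were 1936610, 2027106 and 132005 normalized counts in control replicates 1, 2 and 3, B cell markers (6 genes) were 16148, 18103 and 85388, and erythroid markers (7 genes) were 6020, 9107 and 56735. The comparisons with controls are therefore also given without replicate 3. In bulk RNA, fewer cells of a type and less RNA per cell cannot be told apart.

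The granule protease genes lie on 2 chromosomes of the GRCm38 genome. Prtn3, for proteinase 3 (Entrez gene 19152, chromosome 10, 79879667 to 79883174, plus strand), and Elane, for neutrophil elastase (50701, chromosome 10, 79886312 to 79888216, plus strand), are neighbours whose starts lie 6645 bases apart. Ctsg, for cathepsin G (13035, chromosome 14, 56099885 to 56102574, minus strand), lies in a cluster with the mast cell protease genes. Mpo, for myeloperoxidase, the heme enzyme that makes hypochlorous acid, is Entrez gene 17523 on chromosome 11 (87793784 to 87804412, plus strand). Cst7, for cystatin F, an inhibitor of cysteine cathepsins that include cathepsin C, is gene 13011 on chromosome 2 (150570415 to 150578944, plus strand). Ms4a3, which encodes a membrane protein that marks granulocyte and monocyte progenitors, is gene 170813 on chromosome 19 (11629499 to 11640851, minus strand). Nkg7, for a membrane protein best known from the cytotoxic granules of natural killer (NK) and T cells, is gene 72310 on chromosome 7 (43437138 to 43438246, plus strand).

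The 250 bases before the annotated start of a gene are shown for Mpo, for the neighbours Elane and Prtn3, for Ctsg and for Ms4a3, the member whose change differed most from the others. They come from RefSeq on GRCm38.p6 and read 5′ to 3′ on the strand of the gene. Mpo is chr11:87793534-87793783 (plus), Elane chr10:79886062-79886311 (plus), Prtn3 chr10:79879417-79879666 (plus), Ctsg chr14:56102575-56102824 (minus) and Ms4a3 chr19:11640852-11641101 (minus). Capitals mark matches, on either strand, to 3 motif cores of factors known to act on myeloid genes, AGGAAG for PU.1, AACNGNC for Myb and TGTGGT for Runx.
Mpo: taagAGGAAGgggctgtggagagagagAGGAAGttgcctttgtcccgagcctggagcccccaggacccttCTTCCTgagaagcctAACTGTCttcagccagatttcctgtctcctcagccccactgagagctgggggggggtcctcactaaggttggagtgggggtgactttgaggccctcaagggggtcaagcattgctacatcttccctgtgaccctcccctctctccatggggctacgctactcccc
Elane: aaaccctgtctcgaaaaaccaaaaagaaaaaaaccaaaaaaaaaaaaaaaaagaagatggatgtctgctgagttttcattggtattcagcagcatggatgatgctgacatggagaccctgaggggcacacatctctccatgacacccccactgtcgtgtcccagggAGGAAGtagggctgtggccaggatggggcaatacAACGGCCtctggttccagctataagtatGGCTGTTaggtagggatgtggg
Prtn3: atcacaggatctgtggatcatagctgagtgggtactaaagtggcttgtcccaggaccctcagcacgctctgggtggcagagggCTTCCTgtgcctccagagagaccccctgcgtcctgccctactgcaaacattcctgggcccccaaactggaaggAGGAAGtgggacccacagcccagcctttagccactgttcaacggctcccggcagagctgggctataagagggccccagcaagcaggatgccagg
Ctsg: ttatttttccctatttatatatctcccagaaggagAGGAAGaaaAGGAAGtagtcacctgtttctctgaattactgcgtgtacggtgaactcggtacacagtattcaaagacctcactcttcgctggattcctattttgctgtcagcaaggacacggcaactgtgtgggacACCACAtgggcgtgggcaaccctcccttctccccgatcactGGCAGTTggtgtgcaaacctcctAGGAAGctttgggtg
Ms4a3: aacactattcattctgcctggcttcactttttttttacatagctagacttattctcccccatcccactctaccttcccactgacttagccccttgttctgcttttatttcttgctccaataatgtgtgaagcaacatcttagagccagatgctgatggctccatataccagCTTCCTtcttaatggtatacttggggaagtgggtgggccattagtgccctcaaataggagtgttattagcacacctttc

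AGGAAG stood in the 250 bases of 7 of 7 members, against 29.5% of 32851 mouse promoters of the same length. In Elane it lay at -84 to -79 and in Prtn3 at -94 to -89, counted back from the start, and Prtn3 held a second match on the other strand at -167 to -162. AACNGNC stood in 5 of 7 (27.7% of all), not in Prtn3 and Ms4a3, and Elane had a match at -50 to -44 and another at -22 to -16. TGTGGT stood in 3 of 7 (14.0% of all), namely Ctsg, Nkg7 and Cst7, while TTGCNNAA (C/EBP) and TATAAA stood in 0 of 7 (9.56% and 7.59% of all). The motifs do not overlap in these windows. A match describes the letters and is not a bound site.

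After 5 days of doxycycline, 6 of the 7 genes fell in the mean of the 3 fusions, and none of the 7 rose. The test was limma on log2(normalized count + 1), with Benjamini-Hochberg adjusted p under 0.05, and every difference below is on that scale. The differences were -1.84 ± 0.20 for Ctsg (adjusted p = 2.62e-08), -1.83 ± 0.25 for Mpo (7.3e-07) and -1.78 ± 0.18 for Nkg7 (3.89e-09), where ± gives the standard error (SE). Elane had -1.56 ± 0.22 (2.1e-06), Prtn3 -1.31 ± 0.19 (1.72e-06) and Cst7 -1.22 ± 0.11 (4.18e-10). Ms4a3 had -0.25 ± 0.19 (0.282). Of all features tested, 23.4% fell and 22.6% rose in this comparison, and the median was -1.56 over the members and 0 over all.

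**Figure D1:**
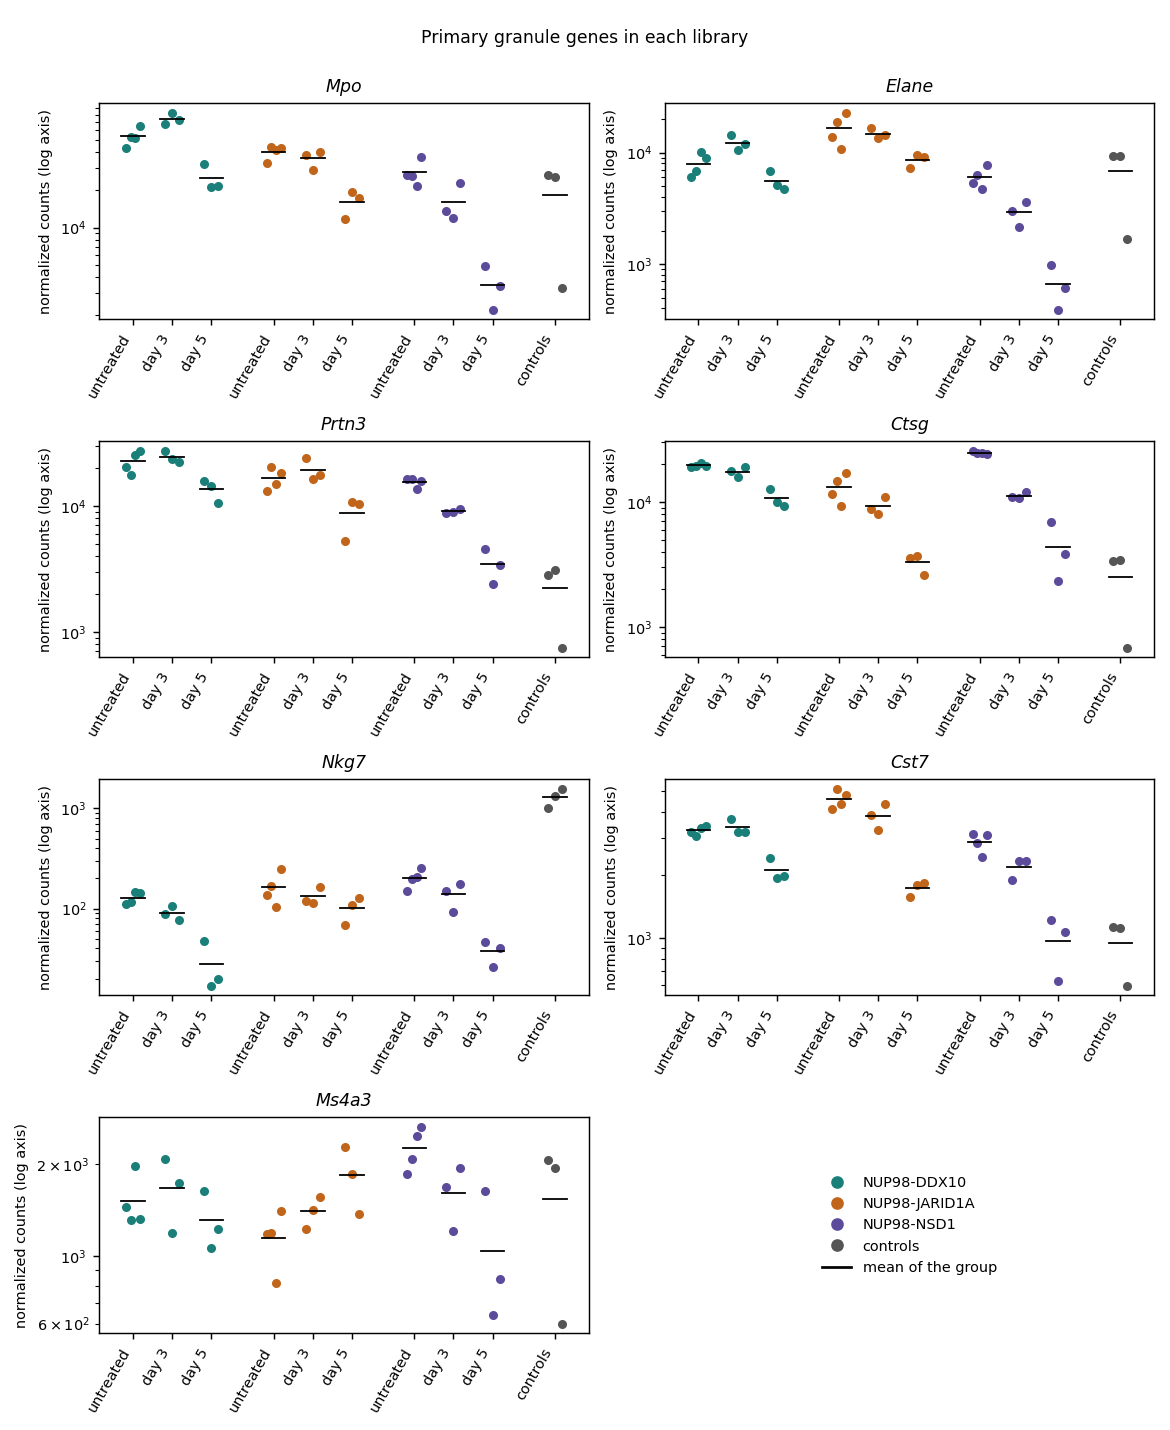
Normalized counts (log axis) of the 7 genes in each of 33 libraries, 1 panel per gene, with 1 point per library and a bar at the group mean. Nkg7 was highest in the controls, and NUP98-NSD1 day 5 libraries had the lowest Mpo and Elane means of all groups.

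Mpo was the most abundant member by normalized count in 9 of the 10 groups, all but NUP98-NSD1 day 5. NUP98-DDX10 cells had 43387, 53506, 52435 and 65139 normalized counts untreated, 67762, 82547 and 71901 at day 3 and 32047, 21318 and 21678 at day 5. NUP98-JARID1A cells had 32651, 44378, 41415 and 43604 untreated, 37987, 28953 and 40370 at day 3 and 11628, 19345 and 17147 at day 5. NUP98-NSD1 cells had 26548, 26119, 21472 and 36397 untreated, 13636, 11872 and 22661 at day 3 and 4902, 2213 and 3412 at day 5. All 9 day 5 libraries lay below every untreated library of their own fusion, and the 3 day 3 libraries of NUP98-DDX10 lay above their untreated ones. Controls had 26287, 25392 and 3273, so replicate 3 stood near the NUP98-NSD1 day 5 libraries and the other two near the NUP98-NSD1 untreated ones. By group mean, NUP98-DDX10 day 3 came first (74070) and NUP98-NSD1 day 5 last (3509). Of neighbours in that order, only these end groups did not overlap with the next.

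Elane encodes the elastase that cuts matrix and bacterial proteins. NUP98-DDX10 cells had 6032, 6864, 10053 and 8921 untreated, 14272, 10594 and 12071 at day 3 and 6818, 5123 and 4717 at day 5. NUP98-JARID1A cells had 13927, 18779, 10808 and 22697 untreated, 16507, 13585 and 14408 at day 3 and 7209, 9604 and 9096 at day 5. NUP98-NSD1 cells had 5394, 6352, 4761 and 7733 untreated, 3023, 2143 and 3609 at day 3 and 982, 390 and 615 at day 5. Here the NUP98-JARID1A cells were highest and the NUP98-NSD1 groups separated fully from each other, while day 5 and untreated NUP98-DDX10 libraries overlapped. Controls had 9425, 9362 and 1684, which overlapped with the untreated NUP98-DDX10 and NUP98-NSD1 values.

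Prtn3, whose protein is the target of the antibodies of vasculitis patients, had another order. NUP98-DDX10 cells had 20358, 17443, 25157 and 27309 untreated, 27236, 23719 and 22251 at day 3 and 15758, 14415 and 10522 at day 5. NUP98-JARID1A cells had 13121, 20367, 14995 and 18177 untreated, 24221, 16310 and 17547 at day 3 and 5266, 10698 and 10439 at day 5. NUP98-NSD1 cells had 16463, 16492, 13579 and 15774 untreated, 8793, 9022 and 9474 at day 3 and 4539, 2377 and 3392 at day 5. In each fusion all day 5 libraries lay below all untreated ones. Controls had 2834, 3119 and 748, below every library of the untreated and day 3 groups and overlapping only with NUP98-NSD1 day 5.

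Ctsg, for the chymotrypsin-like protease of the granule, had the 2 groups with the least spread between libraries, untreated NUP98-NSD1 (coefficient of variation 2.21%) and untreated NUP98-DDX10 (3.06%). NUP98-DDX10 cells had 19176, 19457, 20490 and 19304 untreated, 17704, 15725 and 18853 at day 3 and 12741, 10054 and 9220 at day 5. NUP98-JARID1A cells had 11544, 14788, 9267 and 17035 untreated, 8849, 8022 and 10949 at day 3 and 3527, 3687 and 2625 at day 5. NUP98-NSD1 cells had 25533, 24631, 24440 and 24338 untreated, 10984, 10650 and 11920 at day 3 and 6902, 2340 and 3816 at day 5. Untreated NUP98-NSD1 cells were the highest group and overlapped with no other. Controls had 3365, 3433 and 683, within or below the day 5 values of NUP98-JARID1A and NUP98-NSD1.

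Nkg7 was the lowest member in the 9 fusion groups. NUP98-DDX10 cells had 112, 115, 146 and 142 untreated, 88, 106 and 76 at day 3 and 47, 17 and 20 at day 5. NUP98-JARID1A cells had 135, 167, 104 and 247 untreated, 119, 114 and 163 at day 3 and 69, 109 and 128 at day 5. NUP98-NSD1 cells had 151, 196, 206 and 256 untreated, 149, 92 and 175 at day 3 and 46, 26 and 40 at day 5. The lowest value rested on 16 reads, so its counting error is larger than that of the other members. Controls had 1010, 1326 and 1562, each above all 30 fusion libraries.

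Cst7 had 3213, 3052, 3347 and 3420 in untreated, 3703, 3201 and 3189 in day 3 and 2416, 1929 and 1981 in day 5 NUP98-DDX10 cells. NUP98-JARID1A cells had 4113, 5121, 4358 and 4789 untreated, 3856, 3256 and 4362 at day 3 and 1567, 1785 and 1839 at day 5. NUP98-NSD1 cells had 3120, 2850, 2422 and 3101 untreated, 1886, 2339 and 2331 at day 3 and 1215, 629 and 1071 at day 5. In every fusion the day 5 libraries lay below the untreated and the day 3 libraries without overlap. Controls had 1132, 1119 and 595, within or just below the range of NUP98-NSD1 day 5.

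Ms4a3 varied little across groups, with means of 1041 (NUP98-NSD1 day 5) to 2271 (untreated NUP98-NSD1), and the order of its groups had an overlap at every step. NUP98-DDX10 cells had 1450, 1309, 1977 and 1326 untreated, 2091, 1191 and 1744 at day 3 and 1635, 1061 and 1231 at day 5. NUP98-JARID1A cells had 1186, 1192, 818 and 1404 untreated, 1231, 1414 and 1569 at day 3 and 2285, 1866 and 1377 at day 5. NUP98-NSD1 cells had 1859, 2080, 2489 and 2655 untreated, 1688, 1209 and 1946 at day 3 and 1639, 641 and 843 at day 5. The day 5 libraries thus lay below the untreated ones in NUP98-NSD1 cells, lay below them in 2 of 3 NUP98-DDX10 libraries, and lay above them in 2 of 3 NUP98-JARID1A libraries. Controls had 2075, 1942 and 600.

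Levels can be set between genes only per length of exon (813 bases in Nkg7 to 2546 in Mpo). In untreated NUP98-DDX10 cells the mean normalized count per kb was 23217 for Prtn3, 21059 for Mpo, 19646 for Ctsg, 8660 for Elane, 3304 for Cst7, 1502 for Ms4a3 and 158 for Nkg7. In untreated NUP98-JARID1A cells Elane came first (17992 per kb) before Prtn3 (17145) and Mpo (15912), and in untreated NUP98-NSD1 cells Ctsg (24785) before Prtn3 (16026) and Mpo (10854). At NUP98-NSD1 day 5 Ctsg was at 4361 per kb, and in the controls Elane and Mpo were first at 7417 and 7195. If the library kit reads only transcript ends, which the labels leave unstated, division by length does not apply. The 7 genes together made up 0.643 to 0.824% of all normalized counts in untreated, 0.892 to 0.945% in day 3 and 0.344 to 0.489% in day 5 NUP98-DDX10 libraries. In NUP98-JARID1A the shares were 0.491 to 0.719%, 0.436 to 0.563% and 0.18 to 0.246%, and in NUP98-NSD1 0.471 to 0.603%, 0.252 to 0.348% and 0.0512 to 0.127%. The controls had 0.0585 to 0.233%.

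Set against untreated cells fusion by fusion, the estimates were most negative in NUP98-NSD1 cells. There all 7 fell at day 5, where 11.9% of all features fell. Elane had -3.27 ± 0.39 (adjusted p = 3.11e-07) and Mpo -3.02 ± 0.43 (4.42e-06), which is 0.104 and 0.123 of the untreated level. Ctsg had -2.65 (1.78e-06), Nkg7 -2.42 (8.62e-07), Prtn3 -2.23 (6.3e-06) and Cst7 -1.61 (1.92e-07). Ms4a3 fell by 1.23 (0.00577), and without NUP98-NSD1 day 5 replicate 2 it had -0.93 (0.0679). The median was -2.42 over the members and 0 over all features.

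In NUP98-JARID1A cells 4 of 7 fell at day 5, where 21.2% of all features fell. They were Ctsg (-1.98 ± 0.35, adjusted p = 5.18e-05), Cst7 (-1.41 ± 0.19, 7.65e-07), Mpo (-1.36 ± 0.43, 0.0119) and Prtn3 (-0.97 ± 0.32, 0.0168). Without NUP98-JARID1A day 5 replicate 1, Mpo had -1.14 (0.0568) and Prtn3 -0.64 (0.137). Elane had -0.89 (0.0671) and Nkg7 -0.65 (0.0931), which reached -1.08 (0.0384) and -0.84 (0.0377) without untreated replicate 3. Ms4a3 had 0.68 ± 0.32 (0.0983), the only positive value among the 7.

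In NUP98-DDX10 cells 2 of 7 fell at day 5, where 8.64% of all features fell. They were Nkg7 (-2.28 ± 0.31, adjusted p = 8.55e-06) and Cst7 (-0.63 ± 0.19, 0.0201). The Cst7 call was lost without day 5 replicate 2 (-0.57, 0.0876), day 5 replicate 3 (-0.59, 0.09) or untreated replicate 4 (-0.61, 0.0532). Mpo had -1.11 (0.0785), Ctsg -0.89 (0.0875), Prtn3 -0.73 (0.129), Elane -0.51 (0.41) and Ms4a3 -0.21 (0.716). The spread that sets these p-values is shared by all 33 libraries, and when only the 2 groups compared were fitted, 5 of 7 passed.

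**Figure D2:**
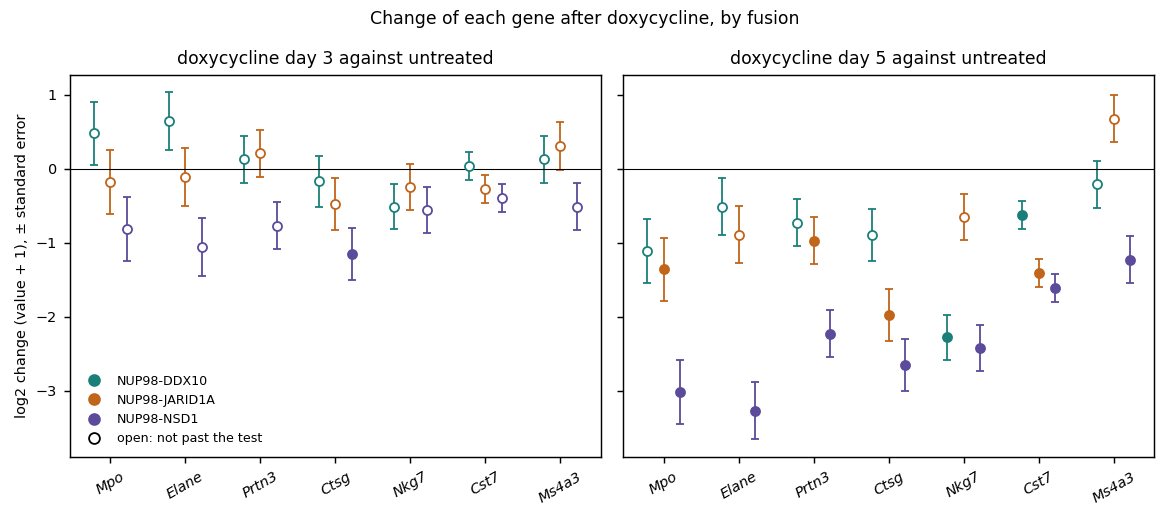
Log2 change (value + 1) of each gene after doxycycline against untreated, by fusion, at day 3 (left) and day 5 (right), with bars of 1 standard error and open circles where the adjusted p was not under 0.05. At day 5 the NUP98-NSD1 points run from -3.27 (Elane) to -1.23 (Ms4a3), all filled, and Ms4a3 in NUP98-JARID1A cells is at 0.68.

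The size of the day 5 change depended on the fusion for all 7 genes by an F-test of equal change in the 3 fusions, which 26% of all features passed. The adjusted p was 0.000811 for Elane, 0.00466 for Nkg7, 0.0096 for Ms4a3, 0.0142 for Cst7, 0.0273 for Ctsg, 0.0297 for Prtn3 and 0.0331 for Mpo. The estimate was most negative in NUP98-NSD1 cells for each of them. The NUP98-JARID1A estimate was the next for Mpo, Elane, Prtn3, Ctsg and Cst7, and the NUP98-DDX10 one for Nkg7 and Ms4a3. Only Elane, Nkg7 and Ms4a3 passed in every fit that left out 1 library. The count was 3 of 7 without NUP98-DDX10 day 5 replicate 1 and 4 of 7 without NUP98-NSD1 day 5 replicate 2.

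At day 3 few of these genes were past the test. In NUP98-NSD1 cells 1 of 7 fell, Ctsg (-1.15 ± 0.35, adjusted p = 0.0384), where 4.59% of all features fell. Its 3 day 3 libraries lay far below the 4 untreated ones, but the call was lost whichever of the 7 libraries was left out (0.0676 to 0.116). The spread behind these p-values is shared by all 33 libraries, and with only the groups compared in the fit 4 of 7 passed. By DESeq2 2 passed, and with untreated libraries titled day 5 only 0 passed. Elane had -1.06 (0.0866), Mpo -0.81 (0.261) and Prtn3 -0.77 (0.139), and the day 3 libraries of Elane and Prtn3 also lay below all untreated ones. In the other two fusions limma called 0 of 7, with 0 at p under 0.05 before adjustment, 0 with edgeR and 0 with DESeq2, where 1.1% (NUP98-DDX10) and 15.7% (NUP98-JARID1A) of all features changed. NUP98-DDX10 cells had 0.65 for Elane (0.534) and 0.48 for Mpo (0.703). In the mean of the fusions 1 of 7 fell, Ctsg (-0.60 ± 0.20, 0.0385), where 9.91% of all features fell, and that call was lost in 18 of 21 fits without 1 library. The F-test at day 3 passed 0 of 7 by limma, with 1 at p under 0.05 before adjustment, 0 with edgeR and 1 with DESeq2, where 7.08% of all features passed.

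From day 3 to day 5 the doxycycline libraries were compared directly, and 6 of 7 genes fell in the mean of the fusions, where 13.4% of all features fell. They ran from -1.66 (Mpo) to -1.01 (Cst7), with Nkg7 at -1.34 and Prtn3 at -1.17, and Ms4a3 had -0.23. In NUP98-NSD1 cells 6 fell (4.95% of all), with Mpo and Elane each at -2.21 and Nkg7 at -1.86. Prtn3 (-1.45) and Ctsg (-1.5) fell there too, but without day 5 replicate 2 they had -1.21 (0.0703) and -1.12 (0.113). In NUP98-JARID1A cells 3 fell (10.4% of all), Ctsg (-1.5), Prtn3 (-1.19) and Cst7 (-1.14). Prtn3 lost that call without day 3 replicate 1 (-1.01, 0.0761) or day 5 replicate 1 (-0.85, 0.0892). In NUP98-DDX10 cells 1 fell (0.497% of all), Nkg7 (-1.77, adjusted p = 0.0083), which was lost without day 3 replicate 2, day 5 replicate 2 or day 5 replicate 3 (0.074 to 0.0797). With only the groups compared in the fit, Nkg7 in NUP98-DDX10 (0.0883), Prtn3 in NUP98-JARID1A (0.0929) and Ctsg in NUP98-NSD1 cells (0.0577) were not past the test. The same day 5 libraries enter this comparison and that with untreated cells.

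Untreated cells of the fusions differed from each other in Elane, Cst7, Ctsg and Ms4a3. NUP98-NSD1 against NUP98-JARID1A gave lower Elane (-1.42 ± 0.36, adjusted p = 0.00144) and Cst7 (-0.68 ± 0.17, 0.0014) and higher Ctsg (0.95 ± 0.33, 0.0143) and Ms4a3 (0.99 ± 0.30, 0.0061), where 29.3% of all features rose and 29.3% fell. Without NUP98-JARID1A untreated replicate 3, Ctsg had 0.79 (0.0574). NUP98-JARID1A against NUP98-DDX10 gave higher Elane (1.03 ± 0.36, 0.0228) and Cst7 (0.49 ± 0.17, 0.0225), where 21.6% of all rose. Elane lost that call without untreated replicate 1 or 2 of NUP98-DDX10 or 2 or 4 of NUP98-JARID1A (0.0561 to 0.0763), and Cst7 without NUP98-DDX10 replicate 2 (0.0562) or NUP98-JARID1A replicate 2 (0.0683), and after quantile normalization (0.37, 0.0926). For NUP98-NSD1 against NUP98-DDX10 limma called 0 of 7, with 2 at p under 0.05 before adjustment, 2 with edgeR and 2 with DESeq2, where 41.9% of all changed. Mpo had -0.97 (0.0503) and Nkg7 0.64 (0.0729), and they had -1.11 (0.0457) without NUP98-NSD1 untreated replicate 4 and 0.77 (0.0475) without replicate 1.

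The ratios between the protease genes differed between groups and moved after doxycycline. Prtn3 over Elane, in normalized counts, was 2.5 to 3.37 in untreated, 1.84 to 2.24 in day 3 and 2.23 to 2.81 in day 5 NUP98-DDX10 cells. It was 0.801 to 1.39, 1.2 to 1.47 and 0.731 to 1.15 in NUP98-JARID1A cells and 2.04 to 3.05, 2.62 to 4.21 and 4.62 to 6.09 in NUP98-NSD1 cells. The controls had 0.301 to 0.444, below every fusion library, and NUP98-JARID1A libraries lay below all those of the other two fusions. Ctsg over Elane was 2.04 to 3.18, 1.24 to 1.56 and 1.87 to 1.96 in NUP98-DDX10 cells, 0.751 to 0.857, 0.536 to 0.76 and 0.289 to 0.489 in NUP98-JARID1A cells and 3.15 to 5.13, 3.3 to 4.97 and 6 to 7.03 in NUP98-NSD1 cells. Controls had 0.357 to 0.406, within the range of NUP98-JARID1A day 5. The 3 control libraries were widely spread in the levels of these genes and less so in both ratios. These ratios are a description, with no test.

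**Figure D3:**
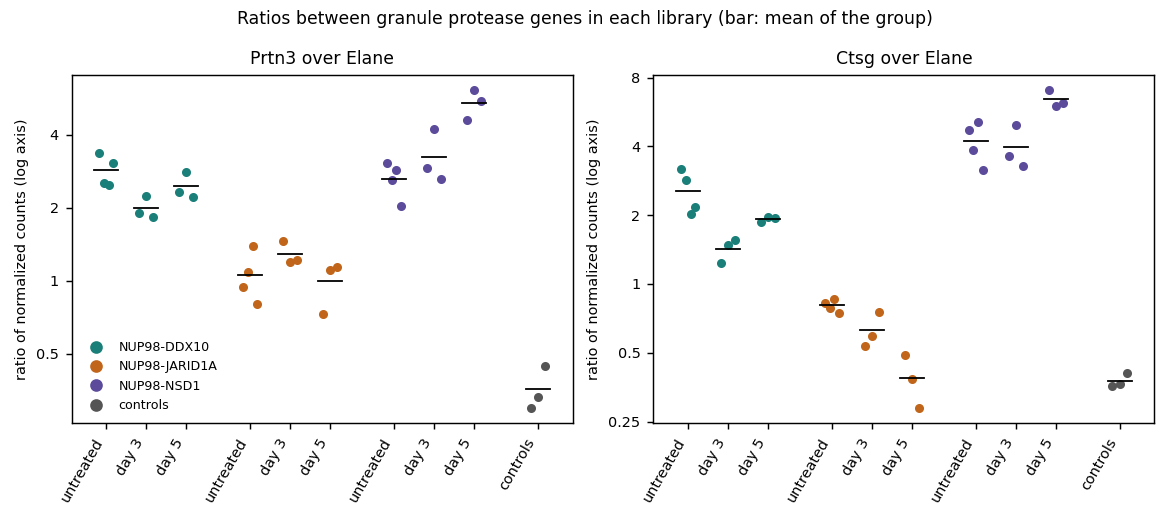
Ratio of normalized counts of Prtn3 (left) and Ctsg (right) to Elane in each library, on log axes, with a bar at the group mean. The controls lie at 0.301 to 0.444 (left) and 0.357 to 0.406 (right), and the NUP98-NSD1 day 5 libraries are the highest, at 4.62 to 6.09 and 6 to 7.03.

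Untreated fusion cells had more Prtn3, Ctsg and Cst7 and less Nkg7 than the controls. Prtn3 was higher by 3.57, 3.13 and 3.05 in untreated NUP98-DDX10, NUP98-JARID1A and NUP98-NSD1 cells (SE 0.32, adjusted p = 1.88e-10, 2.04e-09 and 3.94e-09). Ctsg was higher by 3.30, 2.69 and 3.63 (SE 0.35, 4.09e-09, 1.54e-07 and 7.22e-10) and Cst7 by 1.84, 2.33 and 1.65 (SE 0.19, 1.51e-09, 1.34e-11 and 1.21e-08). Nkg7 had -3.32, -3.03 and -2.68 (SE 0.31, 2.94e-10, 1.43e-09 and 1.69e-08), a level below the controls in all 3 fusions. Mpo was higher by 2.03 (0.000143), 1.63 (0.00139) and 1.06 (0.0311), and Elane passed the test only in NUP98-JARID1A cells (1.59, 0.000724), with 0.56 (0.203) and 0.17 (0.718) in NUP98-DDX10 and NUP98-NSD1 cells. Ms4a3 had 0.15 and -0.25, and 0.74 (0.0467) in NUP98-NSD1 cells. Thus 4, 5 and 5 members were higher and 1 was lower in each, where 30.6%, 31.4% and 29.7% of all features rose and 37.9%, 38% and 34.9% fell. The 3 comparisons share the control libraries.

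Without control replicate 3 the differences of Prtn3 were 2.90, 2.47 and 2.38, of Ctsg 2.53, 1.91 and 2.86, of Cst7 1.53, 2.02 and 1.34 and of Nkg7 -3.17, -2.89 and -2.54. Mpo had 1.04, 0.64 and 0.07 (adjusted p = 0.831 in NUP98-NSD1), and Elane -0.27, 0.76 and -0.66 (0.0471). Ms4a3 had -0.43, -0.83 (0.0116) and 0.16 (0.632). The Mpo call in NUP98-NSD1 cells was also lost without untreated replicate 4 (0.92, 0.0825), and the Ms4a3 call without untreated replicate 2, 3 or 4 (0.0576 to 0.102). Prtn3, Ctsg, Cst7 and Nkg7 kept their calls in all 3 fusions without control replicate 3, and Mpo and Ms4a3 lost theirs in NUP98-NSD1 cells. When only the groups compared were fitted, the calls of Mpo (0.0774) and Elane (0.0559) in NUP98-JARID1A cells and of Mpo (0.243) and Ms4a3 (0.175) in NUP98-NSD1 cells were lost. In NUP98-NSD1 cells Mpo (0.116 and 0.157) and Ms4a3 (0.0674 and 0.107) were also not past the test by edgeR and DESeq2. Quantile normalization moved the median of all features in the control comparisons by 0.115 to 0.169, and in those above by at most 0.033 in size.

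At day 5 the levels were again set against the controls, in 3 comparisons that share those libraries. Prtn3 was higher, by 2.83, 2.16 and 0.82 in NUP98-DDX10, NUP98-JARID1A and NUP98-NSD1 cells (0.0422 in the last). Ctsg was higher by 2.41 in NUP98-DDX10 and 0.99 (0.026) in NUP98-NSD1 cells, with 0.70 (0.0995) in NUP98-JARID1A cells, and Cst7 had 1.20, 0.92 and 0.04. Nkg7 had -5.60, -3.68 and -5.10. In NUP98-NSD1 cells Mpo (-1.96, adjusted p = 0.000604) and Elane (-3.10, 3.62e-07) were below the controls, though the Mpo libraries overlapped with theirs. The counts were 3, 2 and 2 higher and 1, 1 and 3 lower, where 29.1%, 30.6% and 27.3% of all features rose and 35.7%, 36.7% and 31.7% fell. When only the groups compared were fitted, the calls of Mpo (0.119), Prtn3 (0.307) and Ctsg (0.322) in NUP98-NSD1 cells were lost, and Prtn3 had 0.0691 by edgeR and 0.092 by DESeq2.

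Without control replicate 3, the day 5 differences in NUP98-DDX10, NUP98-JARID1A and NUP98-NSD1 cells were 2.17, 1.49 and 0.16 (adjusted p = 0.615 in NUP98-NSD1) for Prtn3 and 1.64, -0.07 and 0.22 (0.488) for Ctsg. Cst7 had 0.90, 0.62 and -0.27, and Nkg7 -5.45, -3.54 and -4.95. The falls of Mpo and Elane below the controls in NUP98-NSD1 cells were larger without that library. Mpo had -0.07, -0.72 (0.0264) and -2.95, Elane -0.78 (0.0261), -0.13 and -3.92, and Ms4a3 -0.64, -0.15 and -1.06 (0.0035). Without NUP98-NSD1 day 5 replicate 1, Prtn3 had 0.60 (0.189), Ctsg 0.59 (0.211) and Ms4a3 -0.87 (0.0431) in those cells, and without replicate 3 Prtn3 had 0.81 (0.0857).

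Nkg7 was read beside the markers of NK and T cells, the cells it is best known from. The summed level of 15 such markers was 41 to 62 normalized counts in untreated, 29 to 52 in day 3 and 27 to 42 in day 5 NUP98-DDX10 libraries, and 72 to 100, 31 to 55 and 25 to 85 in NUP98-NSD1 libraries. NUP98-JARID1A libraries had 677 to 981 untreated, nearly all of it the NK receptor gene Klrb1c (mean 833), and 57 to 72 and 30 to 48 at day 3 and day 5. The controls had 7171 to 12965. In the 30 fusion libraries, Cd3e did not exceed 1.9, Cd3g 1.16 and Ncr1 0.984, and they were at 0 in 24, 25 and 29 of them. The cytotoxic genes Prf1 and Gzma did not exceed 3.32 and 4.98 and were at 0 in 20 and 24. Other markers on the list were detected. Klrb1c reached 938 and Klrd1 67.6 with 0 fusion libraries at 0, Il2rb reached 43.4, Ccl5 21.6 and Cd3d 14.5, and the rest did not exceed 7.3. In the controls Klrd1 was 502, 471 and 391, and Cd3e 409, 392 and 1070. Over the mean of the fusions 0 of the 15 rose and 3 fell at day 5, Klrb1c (-3.8), Il2rb (-0.98) and Ccl5 (-0.85, adjusted p = 0.0499). Of all features, 22.6% rose and 23.4% fell in that comparison. The markers that stayed under 10 in every fusion library passed the filter only through the 3 controls. They could hardly be called here, so the count out of 15 cannot be set against those shares. The part of such cells in the control level of Nkg7 was not tested.

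**Figure D4:**
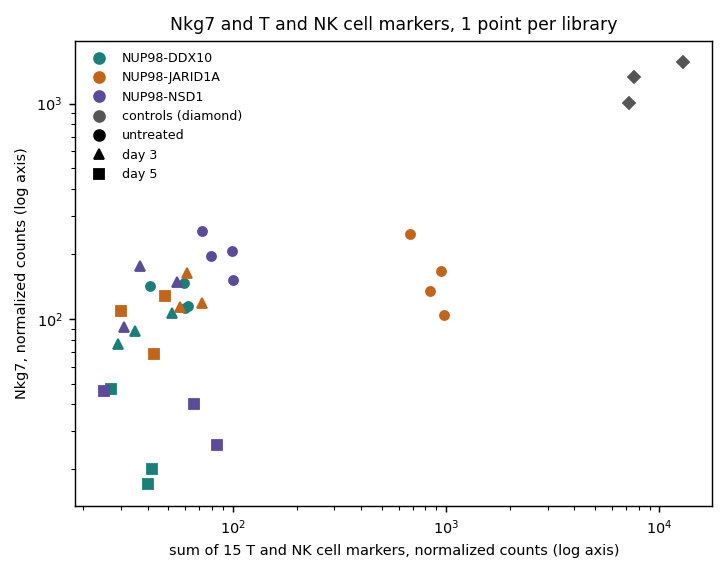
Nkg7 against the sum of 15 T and NK cell markers, both in normalized counts on log axes, 1 point per library, colored by fusion and shaped by treatment. The fusion libraries lie at 25 to 981 on the marker axis with Nkg7 from 17 to 256, and the 3 controls at 7171 to 12965.

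Other marker lists also changed at day 5, where 22.6% of all features rose and 23.4% fell in the mean of the fusions. With doxycycline for 5 days, 6 of 6 progenitor genes fell on the average of the fusions (median -2.40), among them the transcription factor gene Sox4 (-4.79) and the receptor gene Kit (-2.48). Their summed level was 14108 to 16830, 9835 to 10567 and 5775 to 7506 in untreated, day 3 and day 5 NUP98-DDX10 libraries. It was 14521 to 19548, 4887 to 6832 and 1858 to 2208 in NUP98-JARID1A and 7966 to 10021, 4676 to 6008 and 2255 to 4142 in NUP98-NSD1 libraries. The later granules went the other way. All 12 secondary and tertiary granule genes rose in the mean of the fusions (median 1.21), such as Ltf for lactoferrin (1.91 ± 0.33, adjusted p = 2.5e-05), Ngp (1.36 ± 0.29) and the adhesion receptor gene Itgam (1.17 ± 0.19). By fusion, 2, 9 and 7 of the 12 rose in NUP98-DDX10, NUP98-JARID1A and NUP98-NSD1 cells (medians 0.49, 1.54 and 1.17). Of 6 mature neutrophil genes 4 rose (median 0.94), and 11 rose and 1 fell of 12 genes of monocytes and macrophages (median 1.70). In the same order of fusions, 0, 2 and 2 mature neutrophil genes and 4, 11 and 9 monocyte and macrophage genes rose. Basophil and mast cell genes had 3 of 6 tested lower, Cpa3 (-2.78), Gata2 (-1.52) and Mcpt8 (-1.34). Of 4 eosinophil genes 1 fell, Siglecf (-1.36), and 3 of 5 erythroid genes tested rose. In the basophil, eosinophil and erythroid lists too, some genes passed the filter only through the controls. Fcer1a, Il5ra and Epor, for example, did not exceed 0.967, 1.81 and 2.15 in fusion cells. The counts for these lists therefore cannot be set against the shares of all features. The part of these shifts in the falls of the granule genes was not tested.

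Within NUP98-NSD1 day 5 the members moved as a block, with replicate 1 highest and replicate 2 lowest in all 7. Their summed level was 20225, 8616 and 13190 in replicates 1, 2 and 3. In the same libraries the secondary and tertiary granule genes summed to 163832, 228537 and 174314, the mature neutrophil genes to 56416, 136543 and 80575, and the progenitor genes to 4142, 2662 and 2255. The library of this group lowest in primary granule genes was thus highest in later granule and mature neutrophil genes. Among the controls, replicate 3 was lowest in both the summed members (9143) and the mature neutrophil genes (132005). At NUP98-DDX10 day 5 replicate 1 was highest in each member. At NUP98-JARID1A day 5, however, replicate 1 was lowest in Mpo (11628), Elane (7209) and Prtn3 (5266) and highest in Ms4a3 (2285).

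After removal of group means, the members also varied together over the 33 libraries. The correlation of log2 values within groups was 0.91 for Mpo with Elane, 0.90 for Elane with Ctsg, 0.88 for Elane with Prtn3 and 0.88 for Ctsg with Ms4a3. Nkg7 had 0.18 to 0.34 against the other 6. These values rested in part on control replicate 3, low in the other members and highest in Nkg7. Without it, over 32 libraries, a setting added after seeing the data, the same pairs had 0.75, 0.74, 0.72 and 0.79, and Nkg7 had 0.51 to 0.75 against the other 6. The lowest pair was then Prtn3 with Ms4a3 (0.20, and 0.59 with that library). Within a library all members share its size factor, so the values are descriptions. The genes most like each member, by Pearson r of log2 values over 33 libraries among 6261 candidates, were Rab44 (0.92), Chdh (0.90) and Adgrg3 (0.89) for Mpo. They were Cldn15 (0.93), Scnn1a (0.91) and Lbp (0.90) for Elane, and Gpc1 (0.98), Plpp5 (0.92) and Map3k20 (0.92) for Prtn3. For Ctsg they were Cdk6 (0.95), the kinase gene named in the title of the study, Umps (0.95) and Tm7sf3 (0.94). For Cst7 they were Wdr77 (0.93), Dnmt1 (0.91) and G6pc3 (0.91). Nkg7 and Ms4a3 had lower values, with Sipa1l1 (0.84), Emsy (0.84) and Sp4 (0.81) for Nkg7 and Ero1a (0.76), Abcd3 (0.75) and Lhfpl2 (0.74) for Ms4a3.

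Of the transcription factor genes known to act on granule genes, Myb and Gfi1 fell with the members while Cebpa, Cebpb and Cebpe rose. Of 10 regulators tested, 4 rose and 3 fell over the mean of the fusions at day 5 (median 0.16), where 22.6% of all features rose and 23.4% fell. Myb, a factor of myeloid progenitors that activates Mpo and Elane, fell by 1.91 (SE 0.19, adjusted p = 4.03e-09). Its means were 6091, 5209 and 2953 normalized counts in untreated, day 3 and day 5 NUP98-DDX10 cells, 7564, 3552 and 1754 in NUP98-JARID1A cells and 7366, 3351 and 1254 in NUP98-NSD1 cells, against 2661 in controls. By fusion it had -1.05 (0.0297), -2.10 (9.72e-06) and -2.57 (9.68e-07). Gfi1, a repressor needed for granulocyte formation, fell by 1.35 (SE 0.18, 7.95e-07), with -0.57 (0.238), -1.29 (0.00167) and -2.19 (6.18e-06) by fusion. Runx1 fell by 0.50 (7.86e-05). Spi1, which encodes PU.1, rose by 0.60 (0.000447), Cebpa by 0.53 (0.00626), Cebpb by 0.62 and Cebpe, the factor of secondary granule genes, by 0.57 (0.0435). Irf8, a factor of the monocyte line, had -0.02 (0.845). By fusion, 0, 4 and 1 of the 10 regulators rose in NUP98-DDX10, NUP98-JARID1A and NUP98-NSD1 cells. In the same order 2, 2 and 3 fell, where 8.64%, 21.2% and 11.9% of all features fell. The rises in the mean were thus not called in every fusion.

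Genes for the making and packing of granule proteins did not move as one. Of 8 tested, 2 rose and 3 fell at day 5 (median -0.04). Here and for the lists below, the shares of all features were 22.6% risen and 23.4% fallen. Ctsc, for the cathepsin C that activates the serine proteases, rose by 1.31 (SE 0.10, adjusted p = 1.47e-11), to means of 9957, 15331 and 18039 normalized counts at day 5 against 6065, 3428 and 8901 in untreated NUP98-DDX10, NUP98-JARID1A and NUP98-NSD1 cells. Lyz2, for lysozyme, rose by 1.21 (SE 0.16). Prss57, for a further serine protease of the granule, fell (-0.90 ± 0.21, 0.000872), as did Srgn, for serglycin (-0.73 ± 0.10, 5.3e-07), and Calr, for the chaperone calreticulin (-0.47 ± 0.06). Bpi did not pass the filter on low values. Of 6 genes for inhibitors of granule proteases and cathepsins, 4 rose and 1 fell (median 0.55). Cst3 rose by 0.75, Slpi, for an inhibitor of elastase and cathepsin G, by 0.61, Cstb by 0.49 and Stfa3 by 1.26. Serpinb1a, which encodes an inhibitor of elastase, cathepsin G and proteinase 3, fell by 0.39 (0.00713), and had -0.92 (0.00113) in NUP98-NSD1 cells. By fusion, 0, 3 and 1 of the 6 inhibitor genes rose in NUP98-DDX10, NUP98-JARID1A and NUP98-NSD1 cells. In the same order 0, 0 and 1 fell, where 8.64%, 21.2% and 11.9% of all features fell. Of 10 further Ms4a family genes tested beside Ms4a3, 4 rose and 0 fell (median 0.16), Ms4a4a by 2.64, Ms4a8a by 2.52, Ms4a7 by 1.51 and Ms4a6d by 0.45. In the same order of fusions, 1, 6 and 3 of these 10 rose and 1, 0 and 1 fell.

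**Figure D5:**
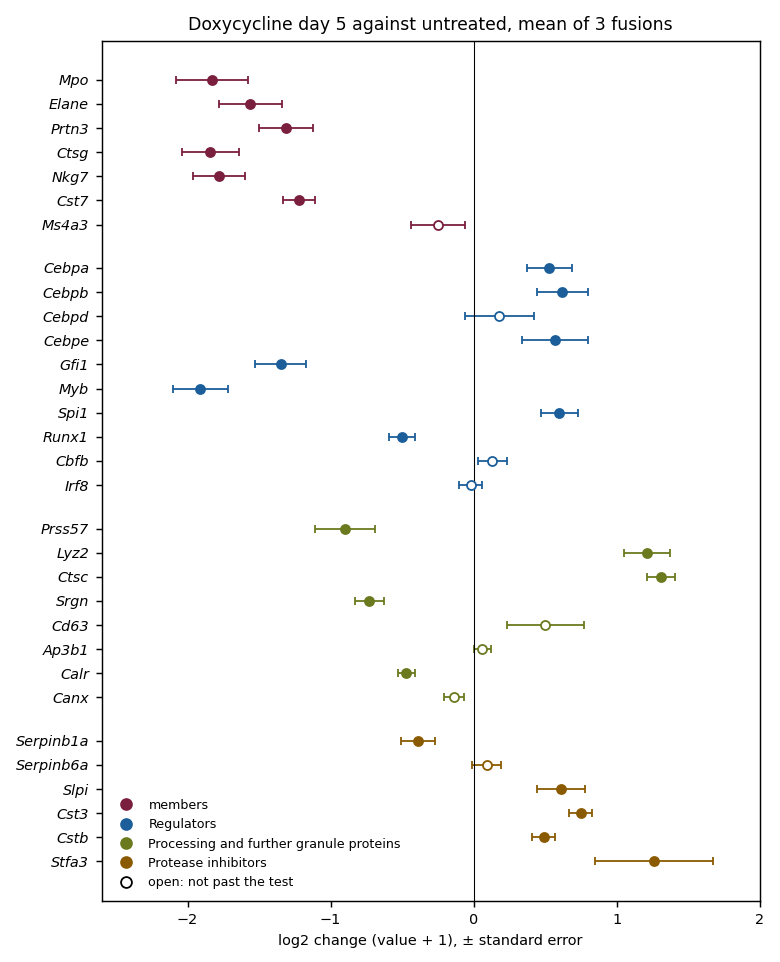
Log2 change (value + 1) at day 5 against untreated in the mean of 3 fusions for the 7 members and the genes of 3 lists, with bars of 1 standard error and open circles where the adjusted p was not under 0.05. Mpo (-1.83) and Ctsg (-1.84) lie beside Myb (-1.91), and Ctsc (1.31) lies opposite to the proteases it activates.

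Genes next to the members on the chromosome were read as well. Distances were taken between the lower coordinates of the genes, whatever their strand. Within 100 kb of a member there were 56 other genes in the file, of which 30 were tested. At day 5, 11 fell and 1 rose (median -0.23), where 23.4% of all features fell and 22.6% rose. Around Prtn3 and Elane, Plppr3 (-0.90 ± 0.10, adjusted p = 4.06e-08), Wdr18 (-0.59, 4.95e-06) and Ptbp1, for a splicing regulator (-0.19, 0.00675), fell, as did E130317F20Rik (-0.69, 0.00466). Med16, whose lower coordinate lies 8394 bases after that of Elane, had -0.13 (0.352) and R3hdm4 0.21 (0.322). Prss57 has its lower coordinate at -98193 bases from that of Prtn3, in the same stretch. Next to Ctsg, the basophil protease gene Mcpt8 fell, and near Nkg7 Siglecf, Siglecg (-0.86) and Etfb (-0.27) fell. Near Ms4a3, Ms4a6d rose and Oosp1 fell (-0.86, 0.028), and near Mpo, Mks1 fell (-0.30, 0.0422) while the eosinophil peroxidase gene Epx had 0.31 (0.587).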

How the data were processed

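The authors deposited 1 table of normalized counts (unit: signal, reads divided by 1 size factor per library) for 33 RNA libraries, made with STAR, SAMtools, featureCounts and DESeq2 on GRCm38 and mm10 per the submitters' processing notes, without versions. Libraries were stranded and poly-A selected per the labels' protocols. Whether the count was strand-specific is not given in the sources used here. The values were whole multiples of 1 step per library (100% within a tolerance of 0.01 reads, largest deviation 3.8e-09), so reads could be recovered, and 0 columns were left unused. The 2 chromatin samples of the 35 in the series were not analysed here.

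Groups came from the titles. The values were fitted as log2(value + 1) with limma 3.58.1 (trend on, total degrees of freedom 27.3) in R 4.3.3, with 1 fit of 10 group means over all 33 libraries. The filter was 10 or more in 3 or more libraries, which 12682 genes and 5 constructs passed, and p-values were adjusted by Benjamini-Hochberg over all of them. The model was also run on simulated data with the same dispersion for all genes and no outlying library. That run therefore cannot show how the model handles the spread of these libraries. The alternatives were pseudocounts of 0.5 and 5, no filter, quantile normalization, a replicate block, only the groups compared, untreated libraries titled day 5 only, each library left out, and edgeR 4.0.16 (quasi-likelihood) and DESeq2 1.42.0 on the recovered reads. The correlations between members were also computed without control replicate 3, chosen after seeing the data.

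The members, lists, motifs and tests were chosen with earlier results of these data known. All members are named. Of each list the up to 4 genes with the smallest adjusted p in the day 5 mean of the fusions are named, with Cebpa, Cebpe, Gfi1, Myb, Irf8, Ctsc, Srgn, Prss57, Bpi and Serpinb1a. Of genes like a member (mean log2 value above the median, plain symbol) the 3 with the highest r are named. Other list members and the neighbours are named as examples chosen after their values were seen. Positions and promoters came from RefSeq on GRCm38.p6, where all 7 members matched. A value after ± is the standard error of a log2 difference.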

Additional observations from a re-analysis of the deposited data

Results flagged for a closer look

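The day 5 change differed between the 3 fusions for each of the 7 genes, by limma's F-test adjusted over all features. The adjusted p was 0.0331 for Mpo, with changes of -1.11, -1.36 and -3.02 in NUP98-DDX10, NUP98-JARID1A and NUP98-NSD1 cells. For Elane it was 0.000811 (-0.51, -0.89 and -3.27), and for Prtn3 0.0297 (-0.73, -0.97 and -2.23). For Ctsg it was 0.0273 (-0.89, -1.98 and -2.65), for Nkg7 0.00466 (-2.28, -0.65 and -2.42) and for Cst7 0.0142 (-0.63, -1.41 and -1.61). Ms4a3, at 0.0096, had -0.21, 0.68 and -1.23. Over the 21 fits without 1 library the adjusted p ran to 0.123 for Mpo (lost in 7), 0.115 for Prtn3 (lost in 5), 0.0784 for Ctsg (lost in 2) and 0.0581 for Cst7 (lost in 1, that without NUP98-DDX10 day 5 replicate 1). It stayed at or under 0.00568 for Elane, 0.0252 for Nkg7 and 0.038 for Ms4a3.

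Of 21 sets of 4 untreated values, 0 held a library past the limit of Dixon's test for outliers.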

How the results depend on the processing

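Of 72 changes of a gene that passed the test, 0 turned their sign in any alternative and 20 lost the call in at least 1. Of 75 that did not pass, 17 turned sign in at least 1. Counts of genes past the test moved as follows. NUP98-NSD1 against NUP98-DDX10 untreated had 0, but 1 with a pseudocount of 5, 1 after quantile normalization, 5 with only the groups compared, 2 by edgeR and 2 by DESeq2. NUP98-NSD1 day 3 had 1, but 0 with no filter, 4 with only the groups compared, 0 with untreated libraries titled day 5 only and 2 by DESeq2. Mean day 3 had 1, but 0 with no filter, 0 with the replicate block, 0 with untreated titled day 5 only and 2 by DESeq2. NUP98-DDX10 day 5 had 2, but 5 with only the groups compared, 1 with untreated titled day 5 only and 4 by DESeq2. NUP98-DDX10 day 5 against day 3 had 1, but 2 after quantile normalization and 3 by DESeq2. NUP98-NSD1 day 5 against controls had 5, but 2 with only the groups compared. NUP98-JARID1A against NUP98-DDX10 untreated had 2, but 0 with untreated titled day 5 only, where the F-test at day 5 had 4, not 7. The F-test at day 3 had 0, but 2 with only the groups compared and 1 by DESeq2. The cause was not tested.

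Leaving out 1 library gave 0 to 0 for each single fusion at day 3, 0 to 2 for the mean at day 3, and 1 to 2, 2 to 6 and 6 to 7 at day 5 for NUP98-DDX10, NUP98-JARID1A and NUP98-NSD1. It gave 6 to 6 for the mean at day 5 and against day 3, and 0 to 1, 2 to 3 and 4 to 7 by fusion against day 3. Against controls it gave 5 to 6, 6 to 7 and 4 to 6 untreated and 4 to 5, 3 to 5 and 4 to 5 at day 5. Between untreated fusions it gave 0 to 2 (NUP98-JARID1A against NUP98-DDX10), 0 to 1 (NUP98-NSD1 against NUP98-DDX10) and 3 to 4 (NUP98-NSD1 against NUP98-JARID1A), and for the F-tests 0 to 0 at day 3 and 3 to 7 at day 5.

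The changes of sign were all in values that did not pass in the main fit. Against controls, some passed with the other sign once control replicate 3 was left out. Elane then had -0.78 (limma adjusted p = 0.0261) at NUP98-DDX10 day 5 and -0.66 (0.0471) in untreated NUP98-NSD1 cells. Mpo had -0.72 (0.0264) at NUP98-JARID1A day 5. Against controls, Elane at NUP98-DDX10 day 5 (0.05) had -0.29 by DESeq2 and -0.20 by edgeR, Elane in untreated NUP98-NSD1 (0.17) -0.17 and -0.07, and Mpo at NUP98-JARID1A day 5 (0.27) -0.18 and -0.12. Ms4a3 had 0.10 after quantile normalization at NUP98-DDX10 day 5 (-0.06) and -0.01 by DESeq2 in untreated NUP98-DDX10 (0.15). Prtn3 in NUP98-NSD1 against NUP98-JARID1A (-0.08) had 0.06 after quantile normalization. With untreated titled day 5 only, Elane at NUP98-JARID1A day 3 had 0.06 (-0.11) and Ms4a3 at mean day 3 had 0.02 (-0.02), and 0.03 with the replicate block. Without 1 library, day 3 values ran from -0.03 to 0.08 for Cst7 and -0.05 to 0.35 for Ms4a3 in NUP98-DDX10, -0.29 to 0.06 for Elane in NUP98-JARID1A and -0.08 to 0.05 for Ms4a3 in the mean. Against controls, NUP98-DDX10 day 5 ran from -0.78 to 0.47 for Elane, -0.07 to 1.43 for Mpo and -0.64 to 0.25 for Ms4a3, and untreated from -0.27 to 0.98 for Elane and -0.43 to 0.47 for Ms4a3. NUP98-JARID1A day 5 ran from -0.07 to 1.10 for Ctsg, -0.13 to 1.11 for Elane, -0.72 to 0.78 for Mpo and -0.15 to 0.74 for Ms4a3, and untreated from -0.83 to 0.06 for Ms4a3. NUP98-NSD1 ran from -0.27 to 0.33 for Cst7 at day 5 and -0.66 to 0.59 for Elane untreated. Prtn3 in NUP98-NSD1 against NUP98-JARID1A untreated ran from -0.19 to 0.02.

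Same-numbered libraries did not vary together throughout (18 pairs, r from -0.26 to 0.34, 4 over 0.1). Those over 0.1 were day 5 pairs of NUP98-JARID1A (0.34 and 0.14) and NUP98-NSD1 (0.14 and 0.25). The NUP98-DDX10 day 5 and NUP98-NSD1 day 3 pairs were all negative, and the numbers were not taken as pairs. The replicate block changed the count of genes past the test only for the mean at day 3 by over 1.5 times.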
